A study of Homo sapiens with 15 samples.

Results

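The genes described here encode the proteins of the mitochondrial ribosome. They were taken as those rows of the authors' deposited table that are annotated as protein-coding and whose symbol starts with MRPL or MRPS followed by a number. This gave 36 of 11230 rows, which stand for 35 genes, since MRPL11 has 2 rows. By symbol, 25 rows belong to the large subunit and 11 to the small subunit. GENCODE release 29 holds 78 protein-coding genes that match the same rule, 49 of the large and 29 of the small subunit, and the 43 outside the table were not analysed here. All rows of the table passed an adjusted p of 0.1 in 1 or more comparisons, so the members are those that passed somewhere and not the whole ribosome.

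The study activated long non-coding RNAs in HEK293FT cells, a fast-growing human embryonic kidney line, and sequenced polyA RNA. Cells of the 4 target groups, titled trex8168, trex0108, trex5008 and trex4039, received a pool of 5 guide RNAs placed 50 to 450 bp upstream of the start of 1 TrEx RNA. The control cells received 5 guides of non-targeting sequence. All 5 groups were co-transfected with dCas9-VP64 and the MS2, p65 and HSF1 activator, were put under 2 ug/mL puromycin at 24 hours and were harvested at 48 hours, with 3 libraries per group. The libraries titled trex8168 carry the target label TrEx5008 and those titled trex5008 the label TrEx8168, and groups are named here by title. The libraries are biological triplicates of 1 cell line, and p-values cover the spread between them. The table gives a mean normalised count per group, a log2 fold change and an adjusted p, with no value per library, so depth is unknown and no SD can be given. Of 7 markers reported for HEK293 lines, 6 were listed, with control means from 368.6 (PAX2) to 5358 (NEFM) per the authors' deposited table. Of 9 fibroblast and blood cell markers, COL1A2, LUM and COL3A1 were listed, with control means of 26.0, 205.8 and 284.1 per the authors' deposited table. At 0.05, 1 of the 6 HEK markers was higher and 1 lower in trex8168, 4 were lower in trex5008 and 3 lower in trex4039, where 24.3% and 33.7% of all listed rows were lower. In trex4039, COL1A2 had a mean of 2.81 and COL3A1 one of 216.8, both called lower, and LUM one of 293.7, called higher, per the authors' deposited table. The part of these markers in the results was not tested.

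Mitochondrial ribosomes translate the few proteins encoded by mitochondrial DNA, all of them subunits of the respiratory chain and ATP synthase. Their RNAs are made in mitochondria, but every protein of the particle is encoded in the nucleus, made in the cytosol and imported. Some of these proteins have counterparts in bacterial ribosomes (the names begin with u or b in the structural nomenclature), and others are specific to mitochondria (names beginning with m). The large subunit forms peptide bonds and holds the exit tunnel, and the small subunit holds the mRNA and the decoding centre.

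The start regions of 4 members that are described below are shown because these genes moved in opposite directions: MRPL55 fell in trex5008 and trex4039, and MRPL1, MRPL48 and MRPL3 rose in trex8168, trex5008 and trex4039. Each window runs from 250 bases before to 50 bases after the annotated start, 5′ to 3′ on the gene's strand, from RefSeq on GRCh38.p14. The windows are chr1:228109250-228109549 (minus strand) for MRPL55, chr4:77862580-77862879 (plus strand) for MRPL1, chr11:73787624-73787923 (plus strand) for MRPL48 and chr3:131502922-131503221 (minus strand) for MRPL3. Capitals mark matches on either strand to the ETS letters CCGGAAG or the YY1 letters ATGGCGG; the NRF1 motif was searched in the same way and had no match in these windows.
MRPL55: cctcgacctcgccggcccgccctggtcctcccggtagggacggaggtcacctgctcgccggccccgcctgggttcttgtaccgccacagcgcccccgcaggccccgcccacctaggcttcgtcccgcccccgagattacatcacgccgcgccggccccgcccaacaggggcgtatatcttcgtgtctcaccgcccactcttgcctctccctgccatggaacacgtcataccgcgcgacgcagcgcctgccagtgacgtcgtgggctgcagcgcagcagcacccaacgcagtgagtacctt
MRPL1: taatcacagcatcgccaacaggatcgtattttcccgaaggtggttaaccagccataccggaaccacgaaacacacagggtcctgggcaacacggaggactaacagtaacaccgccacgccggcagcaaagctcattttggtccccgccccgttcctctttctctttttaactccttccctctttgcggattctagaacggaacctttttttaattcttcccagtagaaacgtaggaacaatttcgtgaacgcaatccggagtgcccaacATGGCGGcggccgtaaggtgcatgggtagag
MRPL48: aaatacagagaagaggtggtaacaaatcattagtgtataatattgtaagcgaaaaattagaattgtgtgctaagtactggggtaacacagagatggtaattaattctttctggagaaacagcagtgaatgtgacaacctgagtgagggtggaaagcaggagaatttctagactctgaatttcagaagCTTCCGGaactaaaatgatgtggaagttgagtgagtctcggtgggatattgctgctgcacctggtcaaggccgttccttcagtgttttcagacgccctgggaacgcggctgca
MRPL3: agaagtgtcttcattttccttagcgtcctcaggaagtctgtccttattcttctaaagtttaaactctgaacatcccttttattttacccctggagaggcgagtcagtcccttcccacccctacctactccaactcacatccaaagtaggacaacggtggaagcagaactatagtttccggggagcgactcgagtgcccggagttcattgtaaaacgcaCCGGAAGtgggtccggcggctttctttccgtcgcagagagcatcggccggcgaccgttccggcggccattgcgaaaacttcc

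The YY1 letters stand in the MRPL1 window, the ETS letters in those of MRPL48 and MRPL3, and none of the marked letters in that of MRPL55. A window was found for 31 of the 35 genes (the first window was taken where a gene had several). The ETS letters stood in 11 of the 31 (35.5%), against 10.7% of 27305 windows of all genes and 17.8% of 4711 windows of listed protein-coding genes. The YY1 letters stood in 8 of 31 (25.8%), against 5.72% of all windows and 9.66% of listed ones. The NRF1 letters, a longer exact string than the others, stood in 0 of 31, against 1.36% and 2.02%. So few windows of any set held this string that 0 of 31 does not show a lack of NRF1 sites. The SP1 letters GGGCGG stood in 21 of 31 (67.7%), against 44.6% and 70.6%, and the CCAAT box, CCAAT, in 12 of 31 (38.7%), against 35.7% of both sets. Matches of different motifs overlapped in 0 of the 31 windows. By call in trex4039, the YY1 letters stood in 3 of 10 windows of higher and 0 of 8 of lower genes, and the ETS letters in 4 of 10 and 2 of 8. The SP1 letters stood in 7 of 10 windows of higher and 8 of 8 of lower genes, and the CCAAT box in 3 of 10 and 5 of 8. The median GC of the windows was 60.7% for the 10 higher and 67.5% for the 8 lower genes. The part of window GC in these counts was not tested. A match to such letters is a description of the sequence and not a binding site.

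Across the 5 group means, the summed count of the listed members was highest in trex8168, and members spread apart in both directions in trex5008 and trex4039. The summed mean normalised count of the 36 rows was 114.0% of control in trex8168, 104.1% in trex0108, 106.9% in trex5008 and 102.6% in trex4039, computed from means per the authors' deposited table. Of the 36 rows, 21 had their highest mean in trex8168, 10 in trex5008, 2 each in trex0108 and trex4039, and 1 in control. The lowest mean was in control for 19 rows and in trex4039 for 15. Some members are listed only through the group where they are highest or lowest, such as MRPL16 in trex8168 and MRPL23 in trex4039. These counts and sums were not made over all listed rows, so they describe the listed members and do not show a shift of the set. The level of a member went up to 8459 for MRPL3, the protein uL3m near the peptidyl transferase centre, as a mean normalised count over the 15 libraries per the authors' deposited table. At the other end, a 296-base locus also assigned to MRPL11 had a mean of 7.62 and the MRPS17 row, a locus of 1664 bases, one of 23.8 per the authors' deposited table. These 2 rows are the only members with a mean under 50, and their levels do not stand for the whole genes.

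**Figure D1:**
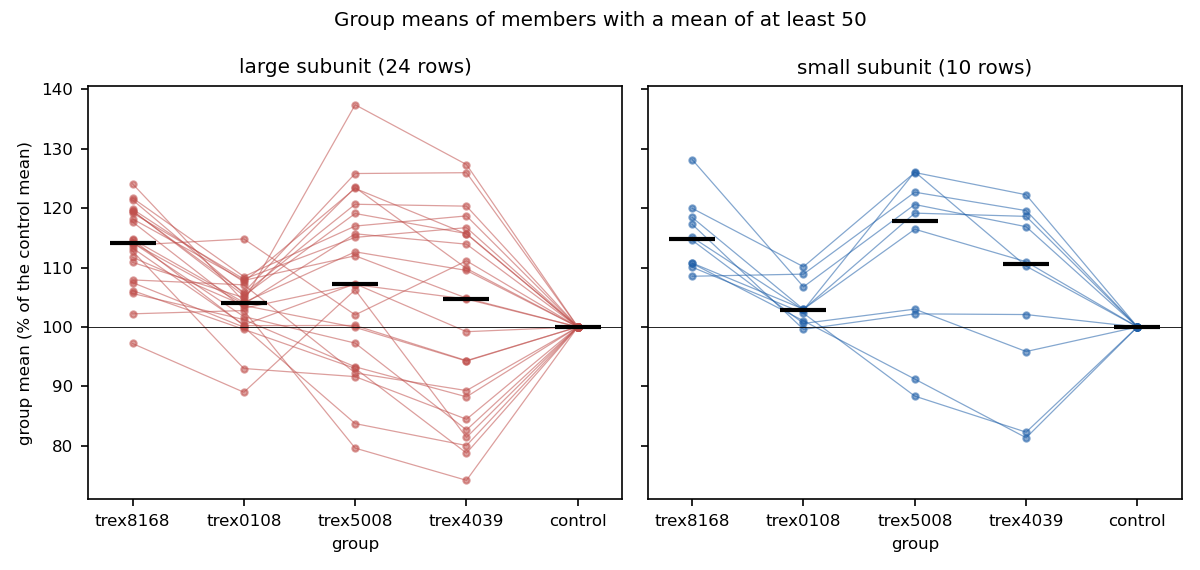
Group means of the members with a mean of at least 50, as percent of the same member's control mean, for 24 rows of the large subunit (left) and 10 of the small subunit (right). Each line joins the 5 group means of 1 member, and the black bars are medians over members; members spread from 97.2% to 124.1% of control in trex8168 and from 74.2% to 127.3% in trex4039 in the large subunit.

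In trex8168, listed mitochondrial ribosomal protein genes were called higher in both subunits and none passed the test as lower. By the adjusted p of the authors' deposited table, at 0.05, 19 of the 35 members with an adjusted p were higher (54.3%) and 0 lower. Of all listed rows, 14.6% were called higher and 6.45% lower in this comparison. Among the 19, MRPL16, MRPL37, MRPL51, MRPS11 and MRPS27 had an adjusted p under 0.1 in trex8168 alone. They are thus listed only because they were high in this group. The share describes the listed members and does not show a shift of the whole gene set. The median log2 fold change of the members was 0.18, against 0.04 over all listed rows and 0.06 over listed protein-coding rows. The called changes were small, from 0.15 to 0.33 on the log2 scale, with approximate SEs from 0.05 to 0.09. These SEs were recovered from the adjusted p and its rank and carry the uncertainty of the unknown number of tests.

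MRPS33, a small subunit protein specific to mitochondria, led the rises, with a mean of 2114 in trex8168 and 1649 in control per the authors' deposited table. Its deposited log2 fold change was 0.33 (approximate SE 0.07, adjusted p 3.94e-04 per the authors' deposited table). MRPL1, the protein uL1m of the L1 stalk from which spent tRNA leaves, had a mean of 1279 in trex8168 and 1030 in control, with a log2 fold change of 0.29 per the authors' deposited table. MRPL3 had 9098 in trex8168 and 7474 in control (0.27) and MRPL48, specific to mitochondria, 1560 in trex8168 and 1285 in control (0.26), per the authors' deposited table. The other 15 called members lay between 0.15 (MRPL37) and 0.24 (MRPL32). Among the 14 rows of proteins specific to mitochondria 11 were called higher, and among the 20 tested rows with a bacterial counterpart 8 were. By sign alone, 13 of the 14 rows and 19 of all 21 rows with a bacterial counterpart were above 0. The difference between these 2 kinds of rows was not tested. MRPS31 was just inside the threshold, with an adjusted p of 0.0473 per the authors' deposited table, while MRPS36 and MRPL36 were outside it, with 0.0851 and 0.0969.

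**Figure D2:**
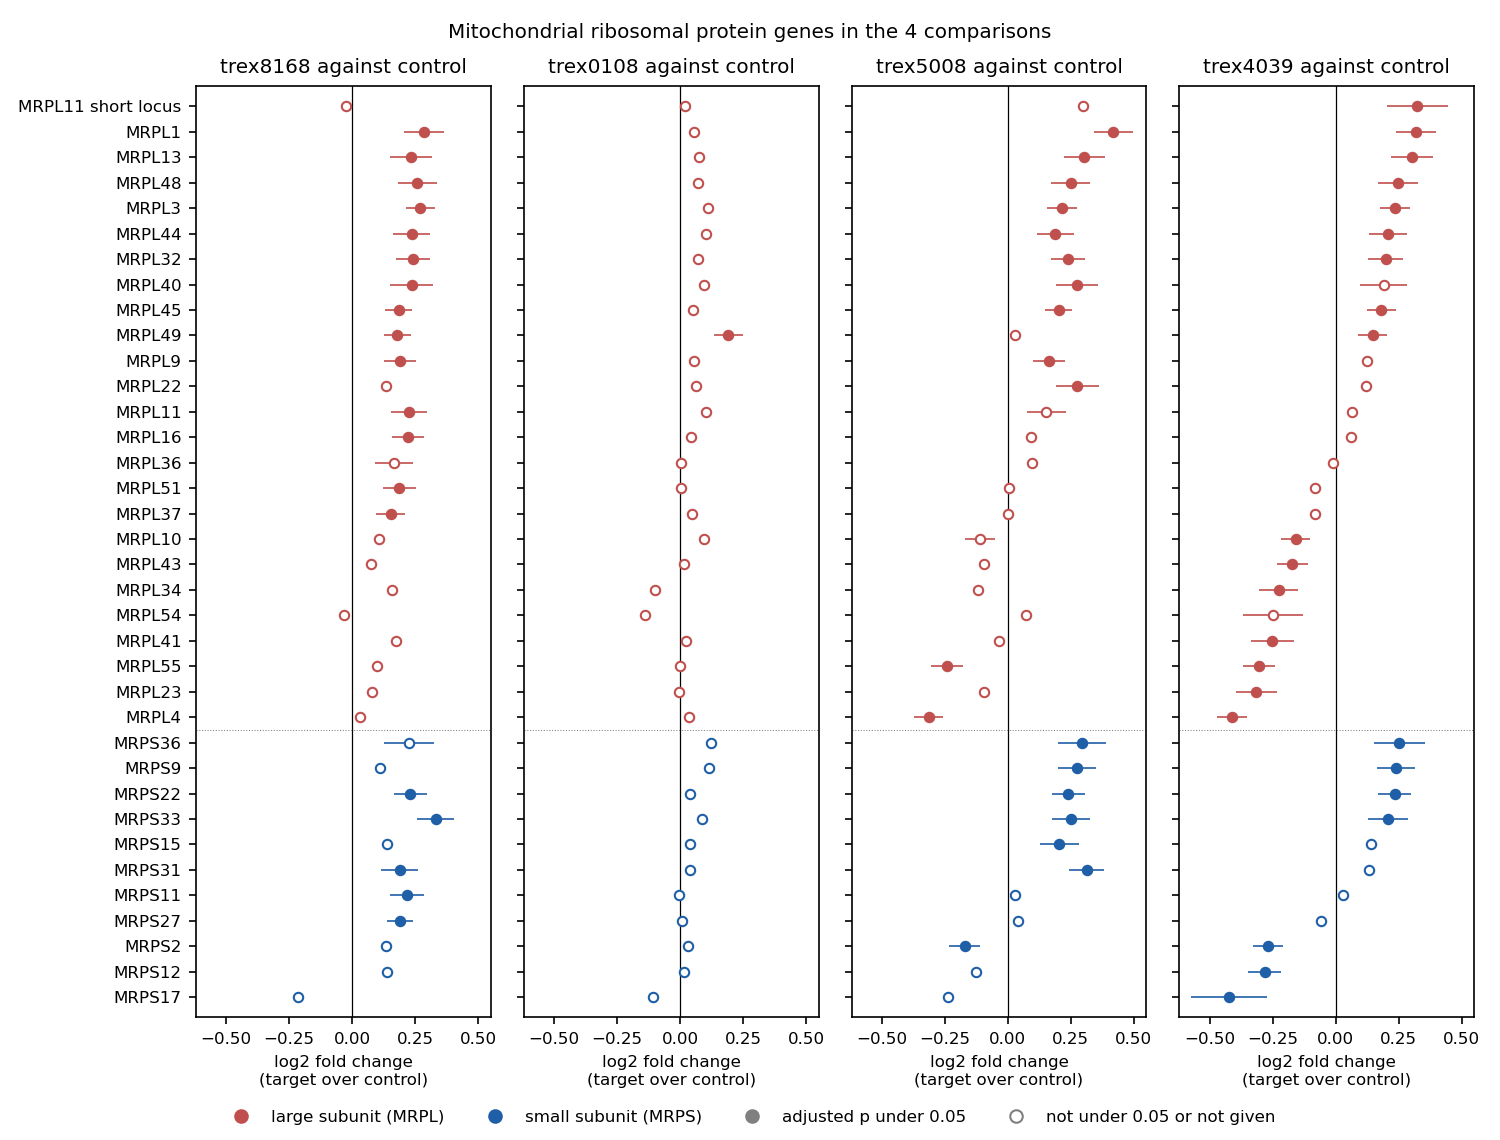
Deposited log2 fold changes of the 36 rows in the 4 comparisons, large subunit above and small subunit below the dotted line. Filled points had an adjusted p under 0.05, and bars are 1 approximate SE, drawn where the adjusted p was under 0.1; in trex8168 the filled points all lie right of 0, and in trex4039 there are 13 to the right and 10 to the left.

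In trex0108, 1 member of the 36 was called. MRPL49, specific to mitochondria, had a mean of 3613 in trex0108 and 3147 in control, with a log2 fold change of 0.19 (approximate SE 0.06) and an adjusted p of 0.013 per the authors' deposited table. Called higher were thus 2.78% of members against 5.65% of all listed rows, and called lower 0 against 0.249%. Of the other 35 members, 29 had a log2 fold change above 0 and 6 below, from -0.14 (MRPL54) to 0.12 (MRPS36), none of them under 0.05 per the authors' deposited table. Above 0 in trex0108 were also 6470 of all 11230 listed rows and 4577 of 7447 listed protein-coding rows. The median log2 fold change was 0.04 for members, 0.02 for all listed rows and 0.03 for listed protein-coding rows. These differences were not tested.

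In trex5008, 16 of 35 members with an adjusted p were higher and 3 lower at 0.05 per the authors' deposited table. The shares were 45.7% and 8.57%, against 29.8% and 24.3% of all listed rows. The members had a median log2 fold change of 0.12 here, against 0.02 over all listed rows. MRPL1 led the rises, with a mean of 1416 in trex5008 and 1030 in control, a log2 fold change of 0.42 (approximate SE 0.08) and an adjusted p of 1.36e-06 per the authors' deposited table. MRPS31 and MRPS36 rose with 0.31 and 0.29, and MRPL13 with 0.30 per the authors' deposited table. MRPS36 carries a small subunit symbol but is known as a subunit of the 2-oxoglutarate dehydrogenase complex, and MRPS31 has a pseudogene, MRPS31P5, listed in a row of its own, with which it may share reads. MRPL4, the protein uL4m whose bacterial counterpart lines the exit tunnel, fell furthest, with a mean of 2404 in trex5008 and 3020 in control, a log2 fold change of -0.31 (approximate SE 0.06) and an adjusted p of 1.88e-06 per the authors' deposited table. MRPL55, the protein bL31m, fell to 1556 in trex5008, against 1859 in control, and MRPS2, the protein uS2m, to 4849, against 5488 in control, with log2 fold changes of -0.24 and -0.17 per the authors' deposited table.

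In trex4039 the members divided, with 13 of 36 higher and 10 lower at 0.05 per the authors' deposited table. The shares were 36.1% and 27.8%, against 37.1% and 33.7% of all listed rows, so both lay near the background. The median log2 fold change was 0.09 for members and 0.03 for all listed rows. MRPL4 again had a low mean, 2240 in trex4039 and 3020 in control, with a log2 fold change of -0.41 (approximate SE 0.06) and an adjusted p of 5.82e-11 per the authors' deposited table. MRPL23, the protein uL23m at the tunnel exit, fell to 1696 in trex4039, against 2153 in control (-0.32), and MRPL55 to 1488, against 1859 in control (-0.30), per the authors' deposited table. In the small subunit MRPS12, a protein of the decoding centre, had a mean of 993.0 in trex4039 and 1221 in control, and MRPS2 one of 4516 in trex4039 and 5488 in control, with log2 fold changes of -0.28 and -0.27 per the authors' deposited table. The low MRPS17 row had 14.8 in trex4039 and 32.1 in control, with the largest called fall by log2 fold change, -0.42 (approximate SE 0.15, adjusted p 0.00943 per the authors' deposited table). MRPL41, MRPL34, MRPL43 and MRPL10 also fell, with log2 fold changes from -0.25 to -0.16.

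Rises in trex4039 were of like size. MRPL1 had a mean of 1312 in trex4039 and 1030 in control (0.32) and MRPL13 one of 3761 in trex4039 and 2986 in control (0.30), per the authors' deposited table. The 296-base MRPL11 locus had 13.6 in trex4039 and 4.17 in control, with a shrunken log2 fold change of 0.33, while the main MRPL11 row had 2452 in trex4039 and 2339 in control and was not called per the authors' deposited table. MRPS36, MRPL48, MRPS9, MRPL3 and MRPS22 rose with values from 0.23 to 0.25. MRPL54 and MRPL40 were just outside the threshold, with log2 fold changes of -0.25 and 0.19 and adjusted p of 0.0503 and 0.0547 per the authors' deposited table. All 4 target groups were set against the same 3 control libraries, so the comparisons are not independent of each other.

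Of the 36 rows, 34 were called in at least 1 comparison at 0.05, against 85.8% of all listed rows, a share that the table's own limit of 0.1 sets high. Called higher in 1 comparison and lower in another were 0 members and 1.86% of all listed rows. MRPL1, MRPL3, MRPL13, MRPL32, MRPL44, MRPL45, MRPL48, MRPS22 and MRPS33 were higher in trex8168, trex5008 and trex4039. MRPL4, MRPL55 and MRPS2 were lower in trex5008 and trex4039, and had means of 3086, 1998 and 6041 in trex8168 and 3020, 1859 and 5488 in control, with adjusted p of 0.800, 0.319 and 0.112 in trex8168 per the authors' deposited table. Called in trex8168 alone were MRPL11, MRPL16, MRPL37, MRPL51, MRPS11 and MRPS27, all higher, and called in trex4039 alone were MRPL10, MRPL23, MRPL34, MRPL41, MRPL43, MRPS12 and MRPS17, all lower, besides the short MRPL11 locus. MRPL36 and MRPL54 were called in 0 comparisons. A call in 1 comparison and not in another is not a tested difference between them. The patterns of shared and single calls were not counted over all listed rows. They describe the listed members and do not set them apart from the other rows.

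Between trex4039 and trex5008 themselves, a difference could be computed for the 16 members with an adjusted p under 0.1 against control in both. These had moved the same way in both, and members called in trex4039 alone could not enter, so the values describe the 16 and do not show that the comparisons were alike. Of the 16, 0 had an adjusted p and 0 an unadjusted p under 0.05 (z test of the difference with recovered SEs, two-sided, Benjamini-Hochberg over 5690 rows). Over all those rows 1.23% differed. The lowest p was that of MRPL4, with a difference of -0.10 on the log2 scale (95% interval from -0.26 to 0.07) and an adjusted p of 0.725. The interval of MRPL1 ran from -0.32 to 0.12 and that of MRPL3 from -0.15 to 0.19, so the intervals reach the size of some called changes.

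Large and small subunit genes were set side by side by their counts and medians. In trex8168, 14 of 24 tested large subunit rows and 5 of 11 small subunit rows were higher per the authors' deposited table, with median log2 fold changes of 0.18 and 0.19. In trex5008, 10 of 24 large subunit rows were higher and 2 lower, and 6 of 11 small subunit rows were higher and 1 lower, with medians of 0.09 and 0.20. In trex4039, 9 of 25 large subunit rows were higher and 7 lower, and 4 of 11 small subunit rows were higher and 3 lower, with medians of 0.06 and 0.13. The large subunit median minus the small one was -0.01 in trex8168, 0.01 in trex0108, -0.11 in trex5008 and -0.07 in trex4039. In summed counts the ratio of large to small subunit was 2.53 in trex8168, 2.56 in trex0108, 2.496 in trex5008, 2.52 in trex4039 and 2.52 in control. By structure MRPS36 is no ribosomal protein, and without it the difference of medians was 0.02 in trex8168, -0.03 in trex5008 and -0.02 in trex4039.

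The members that rose and those that fell in trex5008 and trex4039 differed in the GC content of their transcripts. In trex4039 the 13 higher rows had a median transcript GC of 45.5% (37.0 to 56.98%), and the 10 lower rows one of 62.1% (50.6 to 71.9%). In trex5008 the 16 higher rows had a median of 45.2% (37.0 to 59.3%) and the 3 lower rows one of 62.8% (61.2 to 64.7%). Across the 36 rows, Spearman's rho between GC content and log2 fold change was -0.57 in trex8168, -0.50 in trex0108, -0.79 in trex5008 and -0.75 in trex4039. Over the 6111 listed protein-coding rows with a GC content it was -0.29, -0.40, -0.78 and -0.77 in the same order. These values are across genes that share libraries, and the genes are not independent replicates. The same relation thus held for listed protein-coding rows at large in trex5008 and trex4039. Large subunit rows had a median GC of 50.9% and small subunit rows one of 45.8%.

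**Figure D3:**
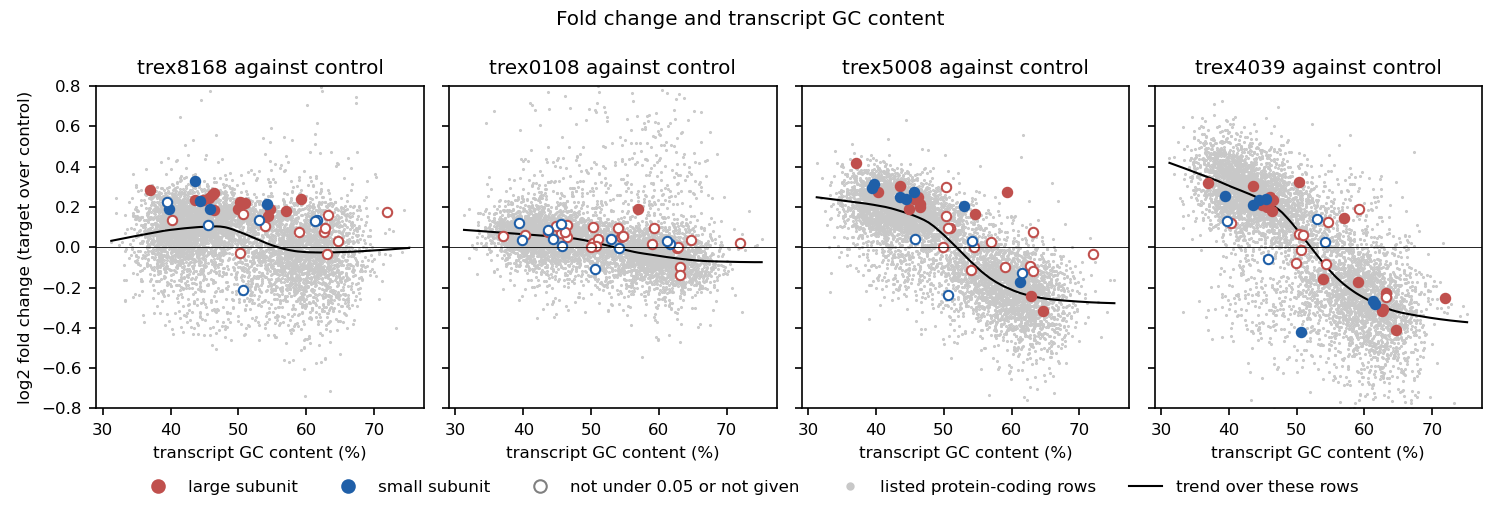
Deposited log2 fold change against transcript GC content for listed protein-coding rows (grey; rows beyond 0.8 in size are not shown) and the members (coloured), with the smoothed trend over the grey rows in black. In trex5008 and trex4039 the members follow the falling trend, and MRPL40 (59.3% GC) lies above it.

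With this trend removed, most called members of trex5008 and trex4039 lost over 0.5 of their size, while most of those of trex8168 kept more than that. A member was counted as kept where its direction stayed and at least 0.5 of its size remained. In trex8168, 17 of 19 higher members were kept (89.5%), against 79.6% of all higher listed protein-coding rows, and the median of the 19 was 0.15 after and 0.22 before. The median of the 14 rows specific to mitochondria was 0.13 after and 0.19 before in trex8168. That of the 21 rows with a bacterial counterpart was 0.14 both after and before. In trex5008, 3 of 16 higher members were kept (18.8%, against 12.3% of all higher rows) and 0 of 3 lower ones. In trex4039, 2 of 13 higher members were kept (15.4%, against 12.6%) and 1 of 10 lower ones (10.0%, against 30.7%). The 1 lower member kept was the MRPS17 row, with a mean under 50. This row and the short MRPL11 locus, 1 of the 2 higher ones, were given the GC content of the whole gene. MRPL4 stood at -0.06 in trex5008 and -0.09 in trex4039, MRPL55 at -0.001 and -0.01, and MRPL1 at 0.20 and -0.03. The differences of the subunit medians became 0.02 in both comparisons.

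A few members did not follow the trend. MRPL40, specific to mitochondria, has a transcript GC of 59.3% and a mean of 2755 in trex5008, 2677 in trex8168 and 2234 in control per the authors' deposited table; its log2 fold change of 0.28 in trex5008 became 0.48 with the trend removed. MRPL49 has a GC of 56.98% and rose in trex8168, trex0108 and trex4039, with log2 fold changes of 0.18, 0.19 and 0.15 per the authors' deposited table, which became 0.19, 0.22 and 0.33. MRPS15 and MRPL9 kept their rises in trex5008, at 0.24 and 0.26 after and 0.20 and 0.16 before. The MRPS17 row kept its fall in trex4039, at -0.49 after and -0.42 before. It rests on low means, 14.8 in trex4039 and 32.1 in control per the authors' deposited table. Its GC content is that of the whole gene and not of the short locus, so the kept fall is uncertain.

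**Figure D4:**
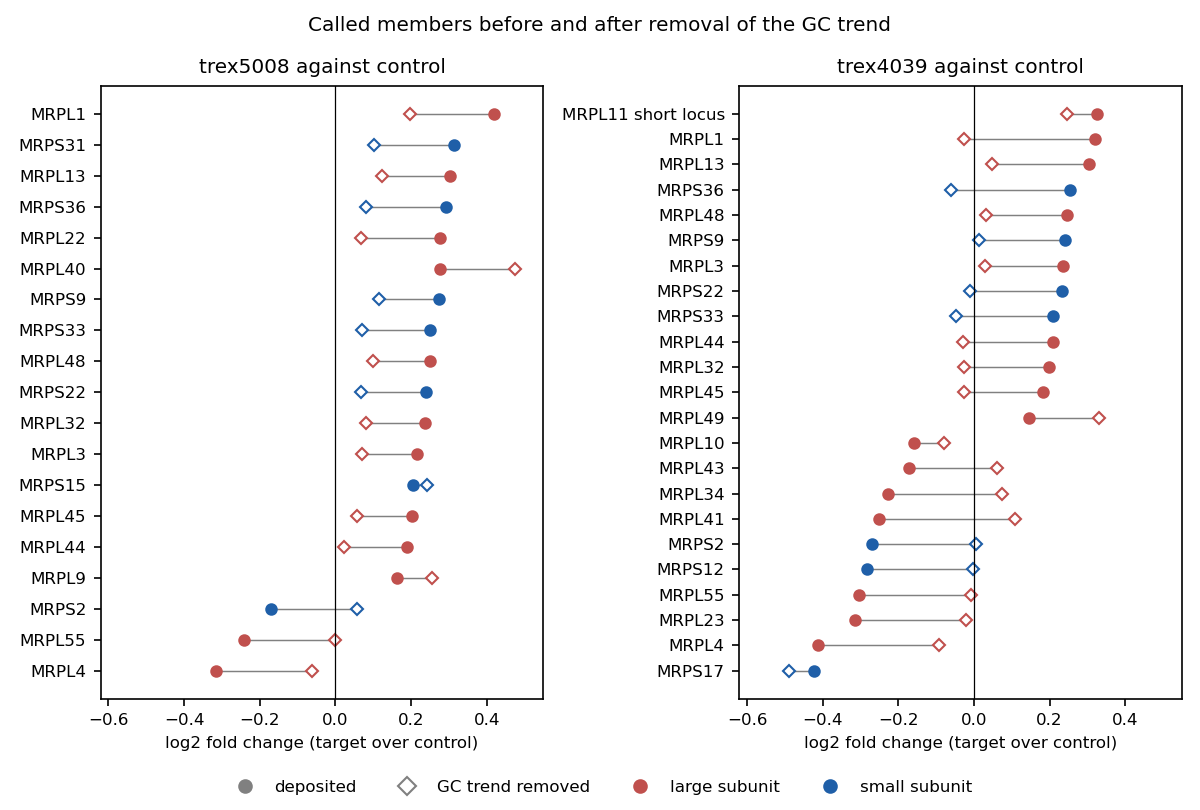
Called members in trex5008 (left) and trex4039 (right), with the deposited log2 fold change as filled circles and the value after removal of the GC trend as open diamonds, coloured by subunit. Most diamonds lie closer to 0 than their circles, while MRPL40 in trex5008 and MRPL49 in trex4039 move away from it, to 0.48 and 0.33.

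Other genes of mitochondrial gene expression, DNA replication and protein import were counted in the same way. Their counts are to be read against the shares of all listed rows, 14.6% higher and 6.45% lower in trex8168, 29.8% and 24.3% in trex5008, and 37.1% and 33.7% in trex4039. On lists this short most shares rest on a few genes, and no difference from all rows was tested. A list of 6 genes held translation factors and other genes linked to mitochondrial translation. Of the 6, 3 were higher in trex8168, 5 in trex5008 and 4 in trex4039, with 0 lower in trex8168 and trex5008. The 1 lower in trex4039 was LETM1, with -0.20 per the authors' deposited table. LRPPRC was among the higher genes of trex5008 and trex4039. Neither LETM1 nor LRPPRC is a translation factor. MTIF2, the initiation factor that brings the starter tRNA to the small subunit, had means of 3746 in trex8168, 3974 in trex5008, 3906 in trex4039 and 3152 in control, with log2 fold changes of 0.24, 0.32 and 0.30 per the authors' deposited table. GFM2, a factor that recycles ribosomes, rose in the same comparisons with 0.17, 0.24 and 0.30 per the authors' deposited table. Among 10 listed rows of ribosome assembly factors, 1 was higher in trex8168, 3 higher and 2 lower in trex5008, and 1 higher and 5 lower in trex4039. YBEY has 2 of these rows, and 1 of the 5 lower calls in trex4039 is its low row. That row had means of 17.6 in trex4039 and 34.4 in control per the authors' deposited table. The main YBEY row had 573.8 in trex4039 and 549.1 in control and was not called there per the authors' deposited table. DHX30, a helicase of assembly, fell in trex5008 and trex4039 with -0.21 and -0.25, and METTL15, a methyltransferase of the small subunit rRNA, rose with 0.30 and 0.45 per the authors' deposited table.

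Of 7 listed tRNA synthetase and amidotransferase genes, 3 were higher in trex8168, 4 higher and 1 lower in trex5008, and 4 higher and 2 lower in trex4039. QRSL1, a subunit of the amidotransferase that makes glutaminyl-tRNA, rose with 0.33, 0.39 and 0.42 in these comparisons per the authors' deposited table. Among 10 listed genes of mitochondrial transcription, RNA processing and DNA replication, 2 were higher in trex8168. In trex5008, 4 were higher and 3 lower, and in trex4039, 6 were higher and 3 lower. The shares of the 10 in trex5008 lay near those of all listed rows. The lower genes include POLG and C10orf2, which act in DNA replication. Both fell in trex5008, with -0.21 and -0.14, and POLG also in trex4039, with -0.30, per the authors' deposited table. POLRMT, the mitochondrial RNA polymerase, fell in trex5008 and trex4039 with -0.26 and -0.48, and TRMT10C, a subunit of the RNase P that cuts tRNA ends, rose in trex8168, trex5008 and trex4039 with 0.24, 0.34 and 0.35 per the authors' deposited table. Among 10 listed import genes, 6 were higher in trex8168, 5 in trex5008 and 5 in trex4039, with 2 lower in trex4039. In trex0108, 0 of the genes on these 5 lists were called, where 5.65% of all listed rows were higher and 0.249% lower. With so few rows called at large, this does not set the lists apart.

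Outside the symbol rule, 5 further rows were grouped with the mitochondrial ribosome, 3 with the large and 2 with the small subunit. OXA1L, grouped with the large subunit, is not itself a ribosomal protein. MRP63, an older symbol of a large subunit gene, rose in trex8168 with 0.28, GADD45GIP1, also of the large subunit, fell in trex4039 with -0.25, and DAP3 of the small subunit rose in trex5008 and trex4039 with 0.21 and 0.16 per the authors' deposited table. For comparison, 10 of 27 listed cytosolic ribosomal protein genes and 13 of 27 listed respiratory chain genes were higher in trex8168 and 0 lower per the authors' deposited table, with median log2 fold changes of 0.20 and 0.20. In trex4039, 2 cytosolic ribosomal protein genes were higher and 7 lower, and 9 respiratory chain genes higher and 8 lower per the authors' deposited table. These shares were 7.41% and 25.9% for cytosolic ribosomal protein genes and 33.3% and 29.6% for respiratory chain genes, against 37.1% and 33.7% of all listed rows. Differences between these lists and all rows or the mitochondrial ribosomal proteins were not tested.

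The rows are loci rather than single transcripts, which bears on what each value counts. On hg19, as the authors' files give it, 8 members had a locus more than 3 times as long as the annotated gene: MRPL22, MRPL36, MRPL41, MRPL45, MRPL51, MRPS2, MRPS11 and MRPS31. The MRPL45 row, for example, spans 199596 bases on chromosome 17 (36453038 to 36652633), against 26196 bases for the gene in GENCODE release 29. Another listed row overlapped 23 of the 36 members, and 16 have a named pseudogene in GENCODE release 29. Without the loci over 3 times the gene's length and the 2 rows with a mean under 50, the counts were 15 higher in trex8168, 13 higher and 2 lower in trex5008, and 11 higher and 7 lower in trex4039. MRPL4 lies on chromosome 19 (10362578 to 10370892), MRPL55 on chromosome 1 (228291628 to 228297038), MRPL1 on chromosome 4 (78783060 to 78882782) and MRPS33 on chromosome 7 (140701827 to 140714797), and the 35 genes fall on 16 chromosomes.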

How the data were processed

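PolyA RNA of 15 libraries in 5 groups of 3 was measured by the authors. The submitters' processing notes name STAR 2.5.1b, Bowtie2 2.2.1, Cufflinks, DESeq2 1.14.1, DESeq and bedtools, and the builds hg19 and GRCh37, without roles. Whether counting used strand is not given in the sources used, so overlapping loci are uncertain. Each deposited signal column is a mean normalised count made by the authors over the libraries of 1 group. The deposited log2 fold changes are target over control and were smaller than the ratio of means in all called rows with a ratio. Each deposited p-value is adjusted, and was counted here at 0.05 as given. With group means alone no count model could be fitted, and depth is unknown. The 3 libraries per group are stated to be biological triplicates.

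Approximate standard errors came from raw p = adjusted p × rank / number of tests, taken as the listed rows with an adjusted p; with the highest locus number they were smaller. The trex4039 and trex5008 fold changes were compared as if uncorrelated, although they share controls, and again with a correlation of 0.5 between their errors. The method was tested on simulated data. GC content and length are medians over protein-coding transcripts of GENCODE release 29 (36 of 36 members, 6111 of 7447 listed protein-coding rows, older symbols matched). The GC trend was a lowess curve with span 0.3 over those rows (statsmodels 0.14.6, Python 3.11.15). Coordinates of loci are hg19, those of start regions GRCh38.p14, and none were converted.

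The members and gene lists were chosen with earlier results of these data known. Genes were named by a rule: the 4 largest rises and falls per comparison, the highest and lowest level, values next to the threshold, and at most 3 called genes per other list. MRPS30 and MRPS18A, whose structural place differs from their symbol, were not analysed here. Members and other listed genes named beyond this rule were chosen after their values were seen. Alternatives were other thresholds, a mean of at least 50, centring on the median of all rows, removal of the GC trend, the ratio of means and subunits by structure.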

Additional observations from a re-analysis of the deposited data

How the results depend on the processing

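At an adjusted p under 0.01, 9 members were higher in trex8168 (19 at 0.05), 0 in trex0108 (1) and 8 in trex4039 (13). With the GC trend removed and at least 0.5 of the size kept, 3 were higher and 0 lower in trex5008 (16 and 3), and 2 higher and 1 lower in trex4039 (13 and 10); the cause was not tested. Large minus small subunit median in trex5008 was -0.028 by structural name and 0.019 without the GC trend, against -0.11; in trex4039 it was -0.016 by structural name and 0.023 without the trend, against -0.07. In trex8168 it was 0.016 by structural name and 0.0051 without the trend, against -0.01, so its sign turned. Without the GC trend 12 called values changed sign. In trex4039 MRPL1, MRPL32 and MRPL45 stood at -0.027 each, MRPL44 at -0.030, MRPS22 at -0.011, MRPS33 at -0.048, MRPS36 at -0.061, MRPL34 at 0.075, MRPL41 at 0.109, MRPL43 at 0.060 and MRPS2 at 0.0042, and in trex5008 MRPS2 stood at 0.056. MRPL10 in trex4039 stood at -0.08 of -0.16, next to the limit of 0.5. The locus length limit was added after seeing the data. The other counts, including those under it and those at 0.1, with a mean of at least 50 and with the median of all rows subtracted, stayed within 1.5 times. The count of members differing between trex4039 and trex5008, among the 16 that could enter, was 0 with either number of tests and either covariance. No paired analysis was possible because the table holds group means only, and for the same reason no library could be left out.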
